A study of Mus musculus with 8 samples.

Results

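Trophoblast is the first lineage to separate from the embryo proper, and it forms the outer layer of the blastocyst (the trophectoderm) and later most of the placenta. Embryonic stem (ES) cells come from the inner cells of the blastocyst, where OCT4, the product of Pou5f1, keeps trophoblast genes from being expressed. Some trophoblast transcription factors act early, in trophectoderm and trophoblast stem cells, and others act later, when the layers of the placenta form. The 8 genes described here are a list of both kinds, from the 26014 gene symbols of the count tables. They were chosen by name, with earlier results of these data known. They are Tead4, Tfap2c, Tfap2a and Ets2, which are known for roles in early trophoblast, and Ascl2, Hand1, Esx1 and Dlx3, which are known for roles in the placental layers.

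Poly(A) RNA was sequenced from mouse V6.5 ES cells, a C57BL/6 and 129 hybrid line that the labels place in 2i medium on gelatin, and from a derivative, OCT4-FKBP, in which OCT4 carries the FKBP tag for degradation. There were 4 groups of 2 libraries each: OCT4-FKBP cells given the compound labelled dTag9, a dTAG degrader, for 24 h (dTAG); OCT4-FKBP cells given DMSO for 24 h (DMSO); parental cells without LIF for 5 days (WT no LIF); and parental cells in normal LIF (WT LIF). LIF is the cytokine used to keep mouse ES cells undifferentiated. Both OCT4-FKBP groups carried the tag, no untagged cells received the degrader, and the labels state neither the number of clones nor whether the replicates were grown as separate cultures. The p-values therefore rest on the variation within these pairs of libraries, which could be technical only. The labels do not say what the medium held during LIF withdrawal besides lacking LIF.

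Counted reads ranged from 7221451 to 11447468 per library, and replicates correlated across genes at r = 0.992 to 0.993 on log2 CPM. CPM, the unit of all levels below, is a gene's reads relative to the library's total after TMM scaling. Of the ES cell marker list, 9 of 10 genes were counted and 1, Nanog, was at 0 in all libraries. Nanog has several accessions that share sequence, which this counting leaves uncounted, so its 0 says nothing about expression. Summed over that list, the level was 1430 and 1460 CPM in dTAG, 3850 and 3860 CPM in DMSO, 2330 and 2280 CPM in WT no LIF, and 4860 and 4960 CPM in WT LIF. The sum weighs the highest genes most: Tdgf1 alone had a mean of 1140 CPM in WT no LIF, against 713 CPM in WT LIF. Of the 9 genes tested in edgeR, Tdgf1 and Utf1 rose without LIF and 6 fell, with a median log2 fold change of -2.04. In dTAG 8 fell and none rose, with a median of -1.16. Pou5f1 RNA was at 84.6 and 90.2 CPM in dTAG against 77.5 and 77.8 CPM in DMSO. The degrader acts on the protein, so this RNA level does not check the treatment. Pou5f1 RNA was at 205 and 170 CPM in WT no LIF against 425 and 336 CPM in WT LIF, a fall of log2 -1.02 (SE 0.08, edgeR adjusted p = 3.5e-11). Pou5f1 has 2 accessions, so its values cover only sequence that tells them apart.

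In the dTAG libraries, 3 of the 8 genes rose (Ascl2, Esx1 and Dlx3) and 3 fell (Tfap2a, Tead4 and Ets2) against DMSO. Without LIF, 4 rose (Hand1, Dlx3, Esx1 and Ascl2) and 3 fell (Tfap2a, Tfap2c and Tead4). Among all 10312 genes tested, 40.5% were called in dTAG against DMSO (20.1% rose and 20.4% fell), and 68.5% in WT no LIF against WT LIF (34.1% rose and 34.4% fell). Changes were thus common throughout, above all without LIF, and the counts for 8 genes are a description of these genes. The median log2 fold change of the 8 was 0.49 in dTAG against DMSO and 0.77 in WT no LIF against WT LIF, beside -0.00 and -0.02 over all genes tested. These 2 comparisons use separate control libraries. A gene was called at an edgeR quasi-likelihood p of 0.05 after Benjamini-Hochberg adjustment over all genes tested.

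**Figure D1:**
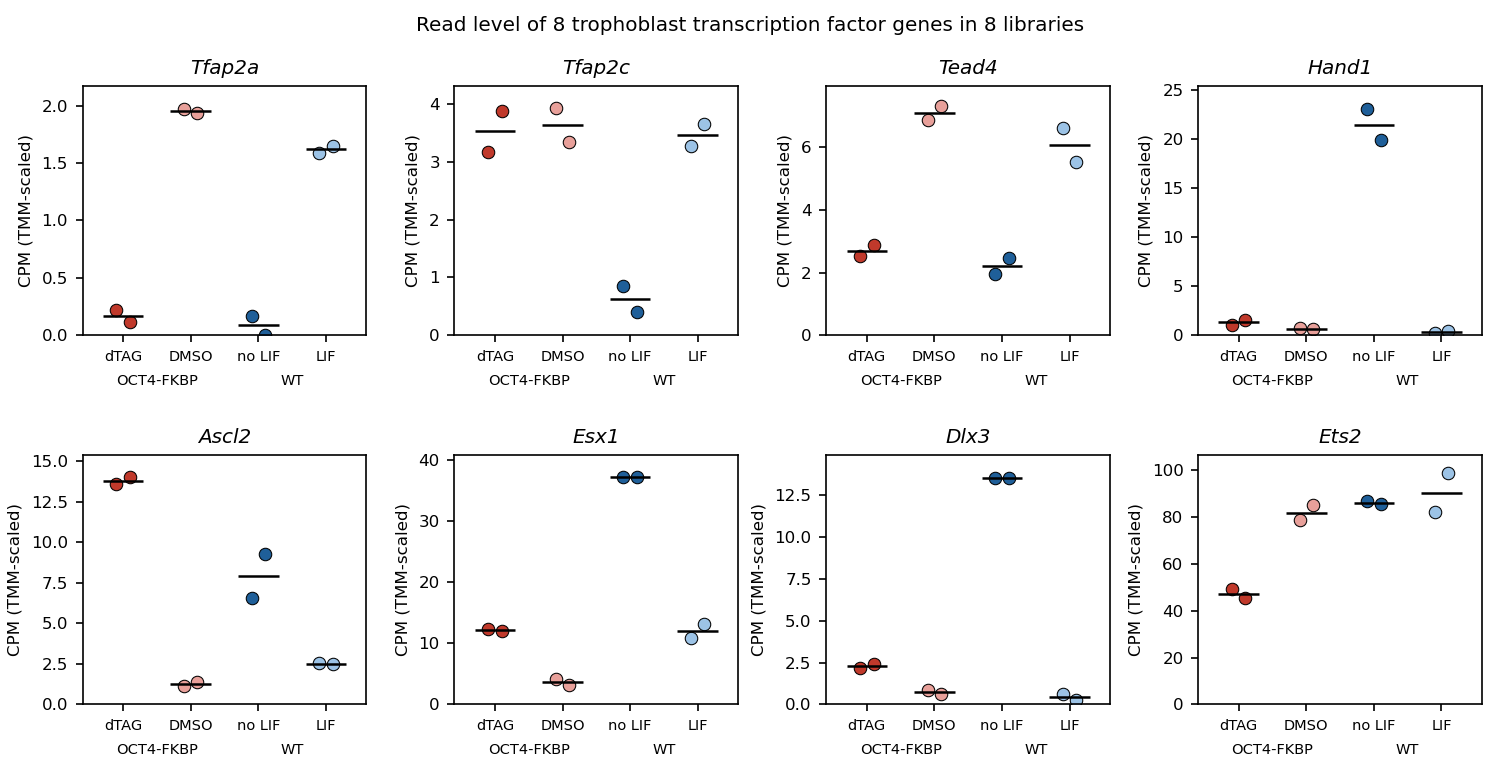
CPM of each of the 8 genes in each library (points) with the group mean (bar), on a linear axis per gene; OCT4-FKBP groups are red and WT groups blue. Tead4 and Tfap2a sit low in dTAG and WT no LIF, whereas Ascl2, Esx1 and Dlx3 sit above their own control group in both.

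All 8 genes passed the filter on low counts, which asked for about 1.07 CPM in at least 2 libraries. Hand1 passed through WT no LIF, where both libraries exceeded the minimum. Tfap2a passed through DMSO and WT LIF, and Dlx3 through dTAG and WT no LIF. Tfap2c passed through dTAG, DMSO and WT LIF but not WT no LIF, and the remaining genes through all groups. A gene that passes only through the groups where it is high is bound to show some difference. Over the 8 libraries together the reads ran from 73 for Tfap2a to 5794 for Ets2, and 4 of the others (Tfap2c, Tead4, Dlx3 and Hand1) had between 211 and 459. Ascl2 had 469 and Esx1 had 1227.

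Tead4 encodes a DNA-binding partner of the coactivators YAP and TAZ, and mouse embryos need it to form trophectoderm and to switch on Cdx2 there. Tead4 was at 2.52 and 2.88 CPM in dTAG against 6.88 and 7.31 CPM in DMSO. It was at 1.96 and 2.45 CPM in WT no LIF against 6.62 and 5.53 CPM in WT LIF. The dTAG and the WT no LIF libraries lay below both libraries of either control group, and no neighbouring pair in the order of group means overlapped. The fall was 2.63-fold in dTAG (log2 fold change -1.40, SE 0.24, edgeR adjusted p = 4.2e-05). Without LIF it was 2.83-fold (-1.50, SE 0.26, adjusted p = 1.3e-05). The difference between the responses was 0.10 on the log2 scale (SE 0.37, adjusted p = 0.84), which is no test of likeness. In these bulk samples, fewer cells that express a gene and less RNA per cell cannot be told apart, here and for every gene below.

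Tfap2a and Tfap2c encode AP-2 factors, which bind GC-rich sites in trophectoderm and trophoblast stem cells. TFAP2C is also a factor of primordial germ cells, and TFAP2A of surface ectoderm and neural crest. Tfap2a gave few reads everywhere, 2 and 1 in dTAG against 14 and 22 in DMSO, and 2 and 0 in WT no LIF against 18 and 14 in WT LIF. Its level was 0.219 and 0.111 CPM in dTAG against 1.97 and 1.94 CPM in DMSO. It was 0.171 and 0 CPM in WT no LIF against 1.59 and 1.65 CPM in WT LIF. The treated or withdrawn libraries lay below the controls in both lines. From the reads alone, dTAG over DMSO was 0.0848 (exact 95% interval 0.0167 to 0.269) and WT no LIF over WT LIF was 0.0651 (0.00756 to 0.255); these intervals cover counting error only. The edgeR fit gave log2 fold changes of -3.46 (SE 0.64, adjusted p = 8.4e-05) and -3.79 (SE 0.71, adjusted p = 4.2e-05). The second was -3.13 without replicate 2 of WT no LIF, and -6.89 without replicate 1, which leaves a group with 0 reads and is no measure of size. An antisense RNA, Gm26688, overlaps Tfap2a and had 1 and 0 reads in dTAG, 1 and 2 in DMSO, none in WT no LIF, and 7 and 6 in WT LIF. The sources used here do not give whether reads were assigned by strand, so reads of the pair cannot be fully told apart.

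Tfap2c behaved differently from Tfap2a. Tfap2c was at 3.17 and 3.88 CPM in dTAG against 3.93 and 3.34 CPM in DMSO. It was at 0.854 and 0.409 CPM in WT no LIF against 3.27 and 3.65 CPM in WT LIF. The dTAG, DMSO and WT LIF libraries lay within one range, and both WT no LIF libraries lay below it. The change in dTAG was log2 -0.02 (SE 0.28, edgeR adjusted p = 0.97). Without LIF Tfap2c fell 4.97-fold (-2.31, SE 0.39, adjusted p = 1.0e-05). The responses differed by 2.29 (SE 0.49, adjusted p = 3.2e-04), which is positive because Tfap2c fell without LIF only. Without replicate 1 of WT no LIF, the fall was -3.03 and the difference 3.0. Of the reads counted for Tfap2c, 72.0% came from 1 of its 2 accessions, and of those for Tfap2a, 97.3% from 1 of 3. For both genes and for Tead4, also with 2 accessions, the values cover only sequence that tells the accessions apart.

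One RefSeq promoter window of Tfap2a is shown because it holds the octamer letters ATGCNAAT, which resemble the sequence that OCT4 is known to bind. The window is the 250 bases before a RefSeq start on the minus strand of chr13:40733796-40734045 (GRCm38.p6), with the match in capitals, read 5′ to 3′.
Tfap2a: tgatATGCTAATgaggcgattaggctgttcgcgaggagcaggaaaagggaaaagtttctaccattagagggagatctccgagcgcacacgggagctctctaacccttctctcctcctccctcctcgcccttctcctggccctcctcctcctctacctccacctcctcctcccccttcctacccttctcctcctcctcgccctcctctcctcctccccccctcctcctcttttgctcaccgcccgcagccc
The start it precedes lies 28 bases from that of a transcript whose accessions had 0 and 2 reads here. Reads shared between accessions are left uncounted, so these few reads say nothing about expression. The start of the accession with most reads lies 3352 bases away. The octamer letters occur on either strand in 2.86% of the 32851 RefSeq windows of the same length. Such a match is a description of the sequence and shows no binding.

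Ets2 encodes an ETS factor that is needed to maintain trophoblast stem cells and is a target of ERK signalling. Ets2 was at 49.2 and 45.3 CPM in dTAG against 78.6 and 85.0 CPM in DMSO. It was at 86.7 and 85.6 CPM in WT no LIF against 82.0 and 98.6 CPM in WT LIF. The dTAG libraries were the lowest of all 8, and the WT no LIF values lay inside the range of WT LIF. Ets2 fell 1.74-fold in dTAG (log2 fold change -0.80, SE 0.09, edgeR adjusted p = 5.0e-08). Without LIF the change was -0.06 (SE 0.08, adjusted p = 0.53). That value rested on the WT LIF libraries: without replicate 1 of WT LIF it was -0.20 (adjusted p = 0.040), and without replicate 2 it was 0.10 (adjusted p = 0.31). The 2 responses differed by -0.74 (SE 0.12, adjusted p = 1.4e-05).

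Ascl2 encodes a bHLH factor of the ectoplacental cone and spongiotrophoblast, transcribed from the maternal allele. Ascl2 was at 13.6 and 14.0 CPM in dTAG against 1.12 and 1.41 CPM in DMSO. It was at 6.57 and 9.27 CPM in WT no LIF against 2.56 and 2.47 CPM in WT LIF. No groups overlapped, and Ascl2 was the only one of the 8 genes with its highest level in dTAG. It rose 10.5-fold in dTAG (log2 fold change 3.40, SE 0.26, edgeR adjusted p = 3.2e-11). Without LIF it rose 3.04-fold (1.61, SE 0.24, adjusted p = 2.2e-06). The responses differed by 1.79 (SE 0.40, adjusted p = 4.7e-04).

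Esx1 encodes an X-linked homeobox factor of labyrinth trophoblast. Esx1 was at 12.4 and 12.0 CPM in dTAG against 4.21 and 3.17 CPM in DMSO. It was at 37.1 and 37.1 CPM in WT no LIF against 10.8 and 13.2 CPM in WT LIF. The dTAG libraries lay above DMSO but within the range of the parental cells in LIF. Esx1 rose 3.39-fold in dTAG (log2 fold change 1.76, SE 0.20, edgeR adjusted p = 3.5e-08) and 3.13-fold without LIF (1.64, SE 0.13, adjusted p = 1.1e-11). The difference between these responses was 0.12 (SE 0.24, adjusted p = 0.71).

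The promoter windows of Ascl2 and Esx1, which rose in both comparisons and whose RefSeq starts are those of the counted accessions, are shown as the 250 bases before the start, both on the minus strand (GRCm38.p6). Ascl2 is at chr7:142969265-142969514 and Esx1 at chrX:137120327-137120576. Lower case throughout marks that neither window holds any of the 5 motifs searched on both strands.
Ascl2: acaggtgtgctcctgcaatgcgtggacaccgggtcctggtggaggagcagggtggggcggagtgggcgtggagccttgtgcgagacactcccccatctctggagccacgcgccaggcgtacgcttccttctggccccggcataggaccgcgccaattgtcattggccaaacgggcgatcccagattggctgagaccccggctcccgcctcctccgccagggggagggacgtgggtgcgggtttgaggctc
Esx1: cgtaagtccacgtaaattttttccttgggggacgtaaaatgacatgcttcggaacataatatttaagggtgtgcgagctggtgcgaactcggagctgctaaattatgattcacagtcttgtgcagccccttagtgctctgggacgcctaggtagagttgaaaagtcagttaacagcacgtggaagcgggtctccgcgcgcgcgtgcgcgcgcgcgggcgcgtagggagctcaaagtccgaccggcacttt
The motifs were the octamer above, the AP-2 letters GCCNNNGGC (in 13.7% of all windows), the TEAD letters GGAATG (12.6%), the E-box CAGCTG (13.0%) and the ETS letters CCGGAA (12.0%). The Ascl2 window had 67.6% G or C and the Esx1 window 54.0%, beside a median of 52.4% over all windows. RefSeq windows were matched for 4 of the 8 genes (Tfap2a, Ascl2, Esx1 and Ets2), 5 windows in all, and the Tfap2a window above was the only one with a match. A missing match says only that these letters are not in the window.

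Hand1 encodes a bHLH factor that drives formation of trophoblast giant cells, and it also acts in extraembryonic mesoderm and heart. Hand1 was at 1.09 and 1.55 CPM in dTAG against 0.702 and 0.616 CPM in DMSO. It was at 23.1 and 19.9 CPM in WT no LIF against 0.265 and 0.471 CPM in WT LIF. WT no LIF stood far above the other 3 groups. Without LIF Hand1 was 59.1-fold higher (log2 fold change 5.89, SE 0.30, edgeR adjusted p = 1.4e-15), the largest fold among the 8 genes in either direction. In dTAG the change was 1.01 (SE 0.48, adjusted p = 0.099), on 10 and 14 reads in dTAG against 5 and 7 in DMSO, and it did not pass the test although the groups did not overlap. The noncoding gene Gm32915, which overlaps Hand1, was not analysed here. The responses differed by -4.87 (SE 0.74, adjusted p = 3.9e-06).

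Dlx3 encodes a homeobox factor that labyrinth trophoblast needs, and it also acts in skin. Dlx3 was at 2.19 and 2.44 CPM in dTAG against 0.842 and 0.616 CPM in DMSO. It was at 13.5 CPM in both WT no LIF libraries against 0.618 and 0.235 CPM in WT LIF. DMSO and WT LIF overlapped, dTAG lay above both, and WT no LIF lay above dTAG. Dlx3 rose 3.24-fold in dTAG (log2 fold change 1.70, SE 0.42, edgeR adjusted p = 0.0019) and 29.0-fold without LIF (4.86, SE 0.31, adjusted p = 2.8e-13). The responses differed by -3.16 (SE 0.67, adjusted p = 2.6e-04). Without replicate 1 of WT LIF, the rise without LIF was 5.76 and the difference -4.06.

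**Figure D2:**
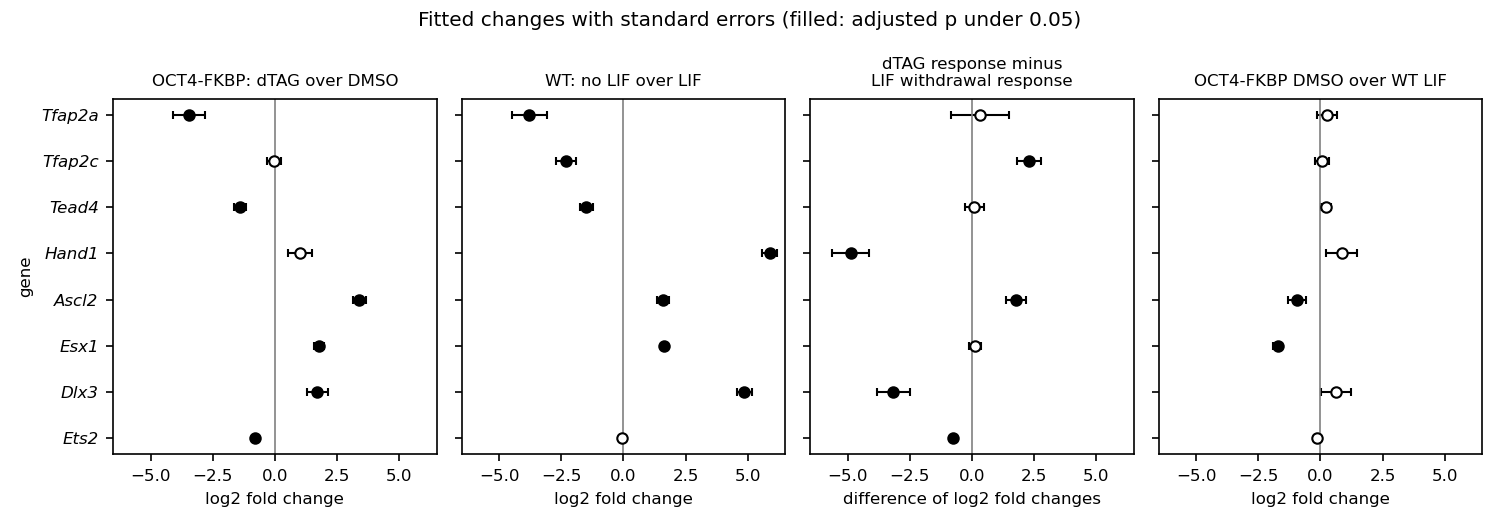
Fitted log2 fold changes of the 8 genes with standard errors in 4 comparisons; filled points passed an adjusted p of 0.05. In the third panel, filled points right of 0 had a log2 fold change that was higher in dTAG than without LIF (Tfap2c and Ascl2). Filled points left of 0 had one that was lower in dTAG (Hand1, Dlx3 and Ets2). The difference is signed and does not give the stronger response: Tfap2c fell without LIF only, and Ets2 fell in dTAG only.

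Of the 8 genes, 5 had responses to dTAG and to LIF withdrawal that differed by the interaction test, 2 in the positive and 3 in the negative direction. Over all genes tested, 55.0% were called, 28.5% in the positive and 26.4% in the negative direction. Both responses were called upward for 3 genes (Ascl2, Esx1 and Dlx3) and downward for 2 (Tfap2a and Tead4), beside 9.31% and 11.5% of all genes tested. None of the 8 was called in opposite directions, beside 4.72% of all genes tested that were lower with dTAG and higher without LIF and 5.89% with the reverse. The treatments differed in length, 24 h against 5 days, and in cell line, so neither time nor line can be told apart from the kind of treatment.

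The tagged line also differed from its parent before the degrader was added. In DMSO against WT LIF, Esx1 was 3.30-fold lower (log2 fold change -1.72, SE 0.19, edgeR adjusted p = 9.0e-08) and Ascl2 1.93-fold lower (-0.95, SE 0.36, adjusted p = 0.035). None of the 8 was called higher in DMSO, and 6 were not called. Of all genes tested, 40.7% were called in this comparison, 22.1% lower and 18.5% higher in DMSO. The Ascl2 call was lost in DESeq2 (adjusted p = 0.093) and on leaving out any 1 of the 4 libraries (adjusted p = 0.068 to 0.14). For the other genes the log2 fold changes ran from -0.13 (Ets2, SE 0.08, adjusted p = 0.23) to 0.85 (Hand1, SE 0.64, adjusted p = 0.31), and without replicate 1 of WT LIF the fall of Ets2 passed the test (-0.26, adjusted p = 0.016). Tag, clone, DMSO and culture batch cannot be told apart in this comparison, and it shares libraries with those above. Cdx2, the trophectoderm homeobox factor, was at 192 and 169 CPM in dTAG, 30.7 and 35.0 CPM in DMSO, 2.73 and 1.5 CPM in WT no LIF, and 0.530 and 1.06 CPM in WT LIF. It was thus 43.1-fold higher in DMSO than in WT LIF (log2 fold change 5.43, SE 0.23, edgeR adjusted p = 1.5e-15). None of the 8 genes was called higher there. Hand1 (12 reads in DMSO against 7 in WT LIF) and Dlx3 (13 against 9) had too few reads for the missing call to show no rise. Pou5f1 RNA, counted over part of its sequence only, was 4.91-fold lower in DMSO than in WT LIF (-2.30, SE 0.09, adjusted p = 3.5e-16).

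**Figure D3:**
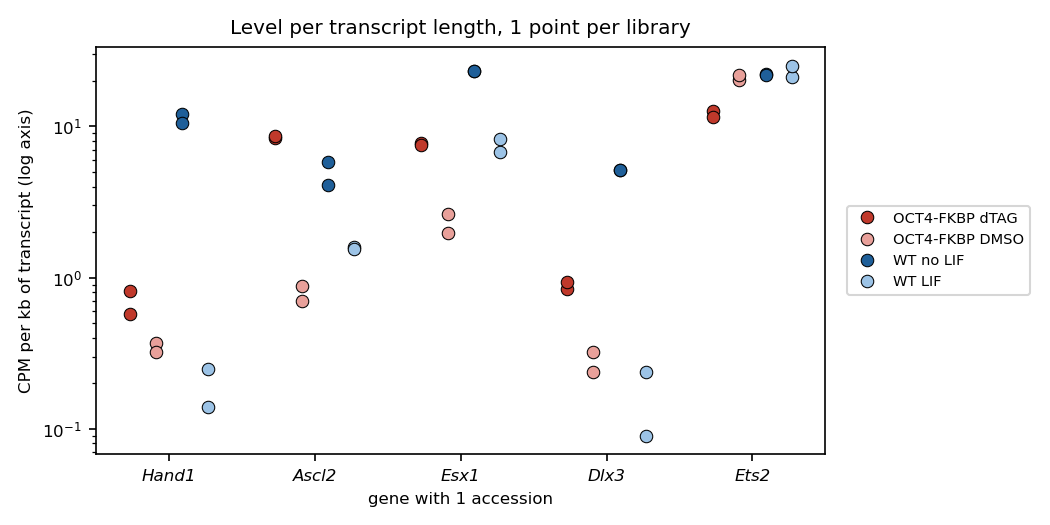
CPM per kb of transcript on a log axis for the 5 genes with 1 accession, with 1 point per library; within each gene the groups run dTAG, DMSO, WT no LIF and WT LIF from left to right. Ets2 stays within a narrow range near the top, while Hand1, Dlx3, Esx1 and Ascl2 spread over about an order of magnitude or more.

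For the 5 genes with 1 accession, levels were set against each other per kb of transcript, with lengths from the GENCODE table. In dTAG the mean levels were 12.1 CPM per kb for Ets2, 8.58 for Ascl2, 7.61 for Esx1, 0.888 for Dlx3 and 0.695 for Hand1. In DMSO they were 21 for Ets2, 2.31 for Esx1, 0.789 for Ascl2, 0.346 for Hand1 and 0.280 for Dlx3. Ets2 was thus first in both groups, and Ascl2 stood above Esx1 in dTAG only. In WT no LIF the mean levels were 23.2 CPM per kb for Esx1, 22.1 for Ets2, 11.3 for Hand1, 5.18 for Dlx3 and 4.94 for Ascl2. In WT LIF they were 23.2 for Ets2, 7.48 for Esx1, 1.57 for Ascl2, 0.193 for Hand1 and 0.164 for Dlx3. Hand1 was low in every group other than WT no LIF. The highest group mean exceeded the lowest by 58.4-fold in Hand1, 31.6-fold in Dlx3 and 22.9-fold in Tfap2a. The lowest group of these genes held 7, 9 and 2 reads in that order, so these sizes are uncertain. The ratio was 10.9-fold in Ascl2, 10-fold in Esx1, 5.76-fold in Tfap2c, 3.21-fold in Tead4 and 1.91-fold in Ets2.

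Tead4 works with other genes of the Hippo pathway, and these moved both ways in dTAG. Of 23 listed TEAD and Hippo pathway genes 17 were tested; 7 rose and 4 fell in dTAG against DMSO, and 13 rose and 1 fell in WT no LIF against WT LIF. Over all genes tested, 20.1% rose and 20.4% fell in dTAG, and 34.1% rose and 34.4% fell without LIF. These shares stand beside the counts of every list below, and the list counts are descriptions only. The median log2 fold change of the Hippo list was 0.17 in dTAG (0.20 with groups at 0 reads set to a floor of 3 reads) and 0.84 without LIF. Amot, an angiomotin that holds YAP in the cytoplasm, was at 38.4 ± 1.58 CPM in dTAG against 3.23 ± 0.790 CPM in DMSO (SD, n = 2 each). Amot was at 226 ± 21.6 CPM in WT no LIF against 2.82 ± 0.999 CPM in WT LIF. Vgll4, a TEAD cofactor that competes with YAP, rose by log2 2.34 in dTAG (edgeR adjusted p = 3.6e-07) and by 2.86 without LIF (adjusted p = 1.5e-07). Among YAP-TEAD targets, Ccn2 fell to 8.49 ± 1.48 CPM in dTAG, against 54.1 ± 3.87 CPM in DMSO, and Ccn1 rose to 406 ± 27.5 CPM in WT no LIF, against 72.5 ± 1.42 CPM in WT LIF. The smaller changes had the direction of the larger one in each comparison: Ccn2 rose by log2 0.29 without LIF, and Ccn1 fell by 0.25 in dTAG, at the threshold. Amotl1, another angiomotin, fell in dTAG (log2 fold change -1.39, adjusted p = 1.8e-13) and rose without LIF (0.84, adjusted p = 3.3e-11). Mob1a, a cofactor of the LATS kinases, rose in dTAG (0.17, adjusted p = 0.029) and fell without LIF (-0.57, adjusted p = 1.9e-08).

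Of 8 listed AP-2 relatives and partners, 4 were tested. Cited2, a CBP and p300 binding coactivator of AP-2 factors, moved in opposite directions: it was at 21.9 ± 0.336 CPM in dTAG against 39.2 ± 0.991 CPM in DMSO, and at 166 ± 3.24 CPM in WT no LIF against 49.5 ± 1.56 CPM in WT LIF (edgeR adjusted p = 5.5e-08 and 2.9e-17). The other 3 were not called in dTAG. Without LIF Kctd1, a repressor of AP-2 activity, fell by 0.67 on the log2 scale (adjusted p = 0.039), a call that was lost without replicate 1 of either WT group (adjusted p = 0.25 and 0.31). Median log2 fold changes were -0.36 in dTAG and -0.23 without LIF.

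Of 10 listed bHLH partners and inhibitors of Hand1 and Ascl2, 7 were tested, with 2 higher and 3 lower in dTAG, and 3 higher and 2 lower without LIF (median log2 fold changes 0.46 and -0.09). Id2, which blocks the E-protein partners of bHLH factors, was at 13.3 ± 2.70 CPM in dTAG against 6.47 ± 0.185 CPM in DMSO, and at 56.2 ± 3.21 CPM in WT no LIF against 6.43 ± 0.273 CPM in WT LIF. Both changes passed (edgeR adjusted p = 1.9e-05 and 6.6e-17). Id3 rose without LIF by log2 3.98, to 24.0 ± 0.801 CPM in WT no LIF, against 1.59 ± 0.748 CPM in WT LIF. In dTAG Id3 fell by 0.67 (adjusted p = 9.3e-04). Id4 rose in dTAG (log2 fold change 0.66) and fell without LIF (-1.84). Hand2, the close relative of Hand1, had 0 reads in dTAG against 19 in DMSO, and 4 in WT no LIF against 31 in WT LIF. Bhlhe40, a bHLH repressor, was at 51.7 ± 9.94 CPM in dTAG against 104 ± 2.10 CPM in DMSO, and it rose without LIF by log2 0.63.

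Of 21 listed ETS genes other than Ets2, 12 were tested; 3 rose and 4 fell in dTAG, and 1 rose and 6 fell without LIF. Median log2 fold changes were -0.07 in dTAG (-0.15 with the floor) and -0.52 without LIF. Elf4 was at 205 ± 3.02 CPM in dTAG against 120 ± 3.11 CPM in DMSO, and at 20.1 ± 0.736 CPM in WT no LIF against 92.8 ± 0.323 CPM in WT LIF (edgeR adjusted p = 8.8e-11 and 2.7e-18). Erf, an ETS repressor that trophoblast differentiation needs in mice, rose in dTAG (log2 fold change 0.62, adjusted p = 2.3e-09) and fell without LIF (-0.36, adjusted p = 1.6e-05). Ehf had 1 read in dTAG against 66 in DMSO, and Spi1 fell by 1.75 on the log2 scale there. Spi1 fell without LIF too, by 2.90, whereas Ehf was not called without LIF. Ets1 had 40 reads in WT no LIF, against 2 in WT LIF and none in dTAG or DMSO. Gabpa fell without LIF by 0.68 on the log2 scale, and in dTAG by 0.15. Of the 5 other DLX genes listed none passed the filter on low counts.

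Among 30 other listed trophoblast regulators 20 were tested; 10 rose and 5 fell in dTAG, and 16 rose and 2 fell without LIF. Median log2 fold changes were 0.48 (0.58 with the floor) and 1.39. Rhox6, a placental homeobox gene, was at 24.4 ± 2.03 CPM in dTAG against 5.11 ± 0.126 CPM in DMSO, and at 58.3 ± 1.67 CPM in WT no LIF against 1.28 ± 0.187 CPM in WT LIF. It belongs to a cluster of similar genes among which reads can be split, so its own level is uncertain. Cdx2 rose in dTAG by log2 2.44 (edgeR adjusted p = 5.3e-17) and without LIF by 1.56 (adjusted p = 0.0022); the call without LIF was lost without replicate 1 of WT LIF (1.07, adjusted p = 0.062) or of WT no LIF (0.98, adjusted p = 0.17). Grhl2, which shapes trophoblast epithelium, rose without LIF to 97.2 ± 4.72 CPM in WT no LIF, against 3.93 ± 0.435 CPM in WT LIF, and fell in dTAG (log2 fold change -0.75, adjusted p = 0.0031). Klf5, a zinc finger factor of trophectoderm and ES cells, fell in both comparisons, by 1.24 and 2.14 on the log2 scale. Mycn fell in dTAG by 1.56 and Sox15, a factor of giant cells, rose in dTAG (0.78) and fell without LIF by 1.50.

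Among 37 listed trophoblast structural and hormone genes 18 were tested. In dTAG 13 rose and 1 fell, and without LIF 12 rose and 5 fell (median log2 fold changes 0.89 and 2.01). Over all genes tested, 20.1% rose and 20.4% fell in dTAG, and 34.1% rose and 34.4% fell without LIF. The list was chosen with earlier results of these data known. Phlda2, an imprinted gene that limits placental growth, was at 249 ± 10.2 CPM in dTAG against 15 ± 1.42 CPM in DMSO (log2 fold change 4.07, edgeR adjusted p = 3.4e-22). It rose without LIF too (1.88, adjusted p = 1.9e-14). The simple epithelial keratin Krt18 was at 851 ± 39.1 CPM in WT no LIF against 7.84 ± 0.226 CPM in WT LIF, and Krt8 rose with it by log2 5.62. In dTAG Krt18 rose by 0.93 and Krt8 by 1.56. Slc2a1, a glucose transporter, rose in dTAG by 1.53 and without LIF by 2.14. The water channel gene Aqp3 fell in both, by 0.64 in dTAG and 5.21 without LIF. The sodium pump subunit gene Atp1b1 fell by 2.12 without LIF and rose by 0.67 in dTAG (adjusted p = 3.0e-11). Of the placental lactogen and proliferin genes Prl3d1, Prl2c2, Prl3b1 and Prl2c3, none had a read in any library, and the spongiotrophoblast marker Tpbpa had 5 reads, all in WT no LIF. At this depth the 0 counts do not show that these hormone genes were silent. Genes with several accessions can be at 0 because of the counting, and reads can be split among similar genes, as for Rhox6.

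**Figure D4:**
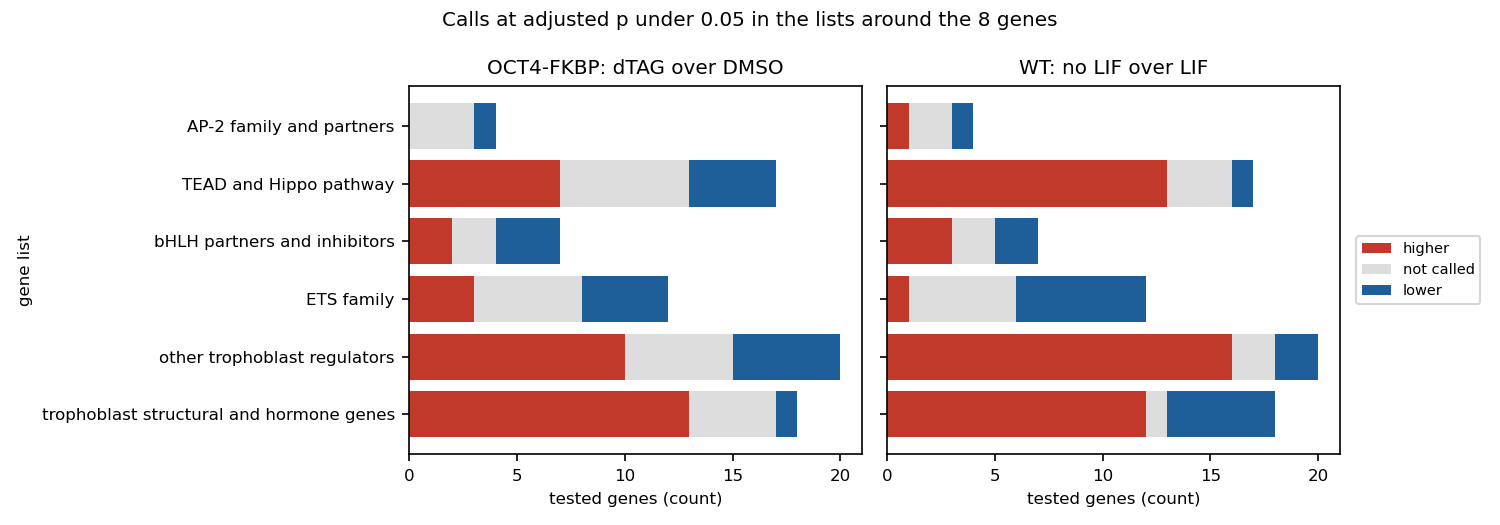
Number of tested genes called higher (red), called lower (blue) or not called (grey) in 6 lists around the 8 genes, for dTAG over DMSO (left) and WT no LIF over WT LIF (right). The 2 trophoblast lists at the bottom have more genes called higher than lower in both panels, and the ETS list has 6 of 12 called lower without LIF. Over all genes tested, 20.1% were called higher and 20.4% lower on the left, and 34.1% and 34.4% on the right.

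Several of the 8 genes are also active outside trophoblast, so markers of those cell types were summed in each library. Of 9 extraembryonic mesoderm markers, 2 were at 0 (Tal1 and Pecam1). The list summed to 3.06 and 3.66 CPM in dTAG, 7.16 and 5.72 CPM in DMSO, 72.2 and 76.9 CPM in WT no LIF, and 6.62 and 7.18 CPM in WT LIF. Of the 3 markers tested, Flt1 and T, the brachyury gene, rose without LIF (log2 fold changes 6.25 and 5.07) and held most of the sum there, at 47.1 ± 2.40 and 25.9 ± 0.463 CPM. The third, Kdr, fell in both comparisons (-1.58 in dTAG and -2.74 without LIF). Of 8 surface ectoderm markers 4 were at 0, among them the epidermal keratins Krt5 and Krt14. That list summed to 251 and 234 CPM in dTAG, 88.2 and 87.6 CPM in DMSO, 34.4 and 32.9 CPM in WT no LIF, and 106 and 109 CPM in WT LIF. Most of it was Grhl3, which rose in dTAG and fell without LIF (log2 fold changes 1.27 and -2.26), while Wnt6 rose in both (3.99 and 3.32). Of 10 primitive and visceral endoderm markers 2 were at 0 (Gata4 and Foxa2), and the sums were 21.9 and 18.1 CPM in dTAG, 0.983 and 1.76 CPM in DMSO, 64.9 and 70.9 CPM in WT no LIF, and 3.09 and 2.47 CPM in WT LIF. A different gene held most of the sum in each of the higher groups: Gata6 in dTAG, at 18.7 ± 2.63 CPM, and Cubn in WT no LIF, at 60.1 ± 3.73 CPM. Of 9 fibroblast markers 2 were at 0 (Postn and Dcn), and the sums were 19.9 and 16.6 CPM in dTAG, 23.6 and 22.0 CPM in DMSO, 149 and 145 CPM in WT no LIF, and 9.53 and 9.76 CPM in WT LIF. Acta2, the smooth muscle actin gene, held most of the sum in WT no LIF, at 127 ± 2.12 CPM. Of the markers named here as at 0, all but Krt5 have several accessions, so their 0 says nothing about expression, as for Nanog. The part of the cell types above in the results was not tested.

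For each of the 8 genes, the genes with the most similar pattern were found by the Euclidean distance between centred log2 CPM profiles over the 8 libraries, among genes with a mean of at least 5 CPM. Syt9 and F2rl1 lay nearest to Ets2 (distances 0.30 and 0.32). Hk2 and Alg13 lay nearest to Tead4 (0.40 and 0.41), and Dnase2a and Trpv4 nearest to Tfap2c (0.50 and 0.51). Meioc lay nearest to Esx1 (0.52), and it too was lower in DMSO than in WT LIF, with 14.8 ± 1.34 CPM in dTAG, 3.60 ± 0.132 CPM in DMSO, 45.5 ± 1.25 CPM in WT no LIF and 12.7 ± 0.557 CPM in WT LIF. Zfp36 was the next for Esx1 (0.78). Timp3 and Lrrn4 lay nearest to Hand1 (0.78 and 0.79), and Tmem88 and Pcdh1 nearest to Dlx3 (0.83 and 0.84). Smtnl2 and Rab38 lay nearest to Tfap2a (0.86 and 0.90), and Parm1 nearest to Ascl2 (0.89). Parm1 was at 16.2 ± 0.155 CPM in dTAG, 1.56 ± 0.413 CPM in DMSO, 9.14 ± 0.966 CPM in WT no LIF and 1.82 ± 0.417 CPM in WT LIF. The distance grows with a gene's own range and with the counting noise of few reads, so distances of different genes among the 8 do not rank. Ets2 had the smallest range and the most reads. A small distance describes these 8 libraries only.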

How the data were processed

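The 8 genes and all gene lists were chosen with earlier results of these data known. The deposited tables, 1 for each library, hold whole read counts for every RefSeq accession. Per the submitters' processing notes the tools were HISAT2 and HTSeq on build mm9; no versions are stated, and the strand and overlap settings are not given in the sources used here. Libraries were made with a kit that marks strand and read from 1 end, per the labels' protocols. HTSeq's 5 summary lines entered neither library sizes nor tests; ambiguous reads, which include those shared between accessions of a gene, came to 42.5% of counted plus ambiguous reads. Of 41565 accessions, 40231 were named from the RefSeq table (GRCm38) and 121 from the GENCODE table; counts were summed per symbol, although the design had foreseen gene counts.

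Counts were tested in edgeR 4.0.16 (R 4.3.3; TMM scaling, filterByExpr, glmQLFit and glmQLFTest) with all 8 libraries and 4 groups in 1 model (4 residual degrees of freedom), which gave a biological coefficient of variation of 4.43%. Standard errors were taken as the log2 fold change over the root of its F value. The scripts were checked on simulated data. DESeq2 1.42.0 was an alternative, beside other filters, scalings, single accessions, a replicate block and leaving out each library. Apart from the 8 genes, Pou5f1 and Cdx2, the text names genes from among the 2 with the smallest adjusted p per list and direction (all of them for the pathway lists, some for the cell type lists) and the 2 nearest patterns per gene, of which 1 gene is not reported here; the cell type markers at 0, hormone genes and Tpbpa were named after their values were seen. Replicates differed by more than sampling noise in every group. Replicate numbers did not pair the libraries (deviations of same-numbered libraries correlated at 0.01 to 0.04). Promoter sequences are from RefSeq, GRCm38.p6.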

Additional observations from a re-analysis of the deposited data

Results flagged for a closer look

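For 5 of the 8 genes the response to dTAG and the response to LIF withdrawal differed by the interaction test in edgeR. The dTAG response minus the LIF withdrawal response was 2.29 on the log2 scale for Tfap2c (adjusted p = 3.2e-04) and 1.79 for Ascl2 (adjusted p = 4.7e-04). It was -4.87 for Hand1 (adjusted p = 3.9e-06), -3.16 for Dlx3 (adjusted p = 2.6e-04) and -0.74 for Ets2 (adjusted p = 1.4e-05). Over all genes tested, 55.0% were called in this test. The treatments also differed in length and in cell line, and the part of each was not tested.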

How the results depend on the processing

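Every call among the 8 genes in dTAG against DMSO, in WT no LIF against WT LIF and in their difference kept its direction and passed the test under each alternative that tested the gene. Of the values not called, Ets2 alone passed under an alternative, without replicate 1 of WT LIF, as given in the report. The number of the 8 genes called lower was 1 in dTAG and 0 without LIF when only genes with 1 accession were tested, since Tfap2a, Tfap2c and Tead4 then drop out. With at least 5 CPM in 2 libraries it was 1 without LIF. The count with a positive difference of responses was 1 there and 1 with 1-accession genes. These counts are lower because fewer of the 8 were tested. In DMSO against WT LIF the count lower was 1 in the DESeq2 Wald test and 1 to 2 on leaving out 1 library; over all genes it was 1409 in DESeq2 and 1463 to 2226 on leaving out 1 library, and the cause was not tested. The counts in the other comparisons on leaving out 1 library were 3 higher and 3 lower in dTAG, and 4 higher and 3 to 4 lower without LIF.

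The values that changed sign were not called with all libraries. With its most-read accession tested alone, Tfap2c was 0.24 in dTAG against DMSO and -0.06 in DMSO against WT LIF. On leaving out 1 library, Tfap2c ran from -0.18 to 0.11 in dTAG against DMSO and from -0.03 to 0.22 in DMSO against WT LIF. Ets2 ran from -0.20 to 0.10 without LIF and from -0.26 to 0.04 in DMSO against WT LIF. The difference of responses ran from -0.12 to 0.29 for Esx1, from -0.33 to 3.44 for Tfap2a (3.44 without WT no LIF replicate 1, which leaves a group with 0 reads) and from -0.08 to 0.22 for Tead4. With a replicate block, though the numbers did not pair the libraries, the 8 genes kept 3 calls each way in dTAG, and over all genes 2100 rose and 2115 fell there. Alternatives for the other named genes were chosen after seeing the data. Depth limits Tfap2a, Hand1 and Dlx3, whose low groups held few reads.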

Other observations

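TFAP2C is also a factor of primordial germ cells, and 6 of 7 listed germ cell markers were tested. Prdm14, a factor of germ cells and naive ES cells, was at 44.8 ± 3.08 CPM in dTAG against 119 ± 3.95 CPM in DMSO, and at 6.52 ± 0.0404 CPM in WT no LIF against 107 ± 1.52 CPM in WT LIF (SD, n = 2 each). Dppa3, which protects maternal DNA methylation after fertilization, was at 130 ± 0.383 CPM in dTAG against 245 ± 0.465 CPM in DMSO, and at 35.6 ± 1.35 CPM in WT no LIF against 177 ± 5.78 CPM in WT LIF. Prdm1, a repressor needed for germ cells, was at 16.1 ± 0.232 CPM in dTAG against 16.8 ± 1.69 CPM in DMSO, and at 65 ± 1.08 CPM in WT no LIF against 36.9 ± 0.470 CPM in WT LIF. Dnd1 and Ddx4, which code for germ cell RNA-binding proteins, rose in both comparisons: Dnd1 by log2 1.84 in dTAG and 1.28 without LIF, and Ddx4 by 1.49 and 3.43. The Ddx4 call in dTAG (edgeR adjusted p = 0.041) was lost in DESeq2 (adjusted p = 0.13) and without DMSO replicate 1 (0.26), dTAG replicate 1 (0.34) or either WT no LIF library (0.064 and 0.061). Of the list, 2 rose and 2 fell in dTAG, and 3 rose and 3 fell without LIF, by edgeR's test. Over all genes tested, 20.1% rose and 20.4% fell in dTAG, and 34.1% rose and 34.4% fell without LIF. Gata6, a primitive endoderm factor, was at 18.7 ± 2.63 CPM in dTAG against 0.536 ± 0.362 CPM in DMSO, and at 2.75 ± 0.745 CPM in WT no LIF against 1.37 ± 0.0619 CPM in WT LIF.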
